A study of Mus musculus with 5 samples.

Results

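Gene deserts are long stretches of chromosome without protein-coding genes. Acetylated stretches of chromatin inside them were described here in mouse neural stem cells (NSC) and brain tumour stem cells (BTSC). A peak of H3K27ac (histone H3 acetylated at lysine 27) was counted as a desert peak when its midpoint lay 100 kb or more outside every protein-coding RefSeq gene of mm10 on autosomes 1 to 19. By that rule 2474 of the 30481 autosomal peaks of the NSC list (8.12%) and 2061 of the 30797 of the BTSC list (6.69%) were desert peaks, out of 31266 and 31597 peaks in all. The other 28007 and 28736 autosomal peaks served as the comparison. The peak nearest to the threshold on the inside lay 100057 bp from Epb41l4a in NSC and 100054 bp from Zfp36l2 in BTSC, and on the outside 99989 bp from Klf7 and 99990 bp from Kcne4.

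Chromatin immunoprecipitation with sequencing was done on cell cultures, with 1 library per group. H3K27ac was profiled in NSC and in BTSC that had not been transduced. TLX, the orphan nuclear receptor encoded by Nr2e1, was profiled in NSC and in BTSC that carried a retrovirus for TLX with a 3xTY1 tag, through an antibody against TY1, so the TLX and H3K27ac libraries came from different cells of a culture, and the TLX measured was the protein brought in by the virus. A control without antibody from cells with the empty vector MSCV-neo also belongs to the series and was not analysed here. Per the labels the NSC are primary cells, the transduced cells were selected with a drug for stable integration, and TY1 was not precipitated from untagged cells. The labels name neither the mouse strain nor the tumour model behind the BTSC, nor any sex, age or number of animals or cultures. Since each group is 1 library, spread between replicates could not be measured, cultures were not tested against each other and no p-value is given.

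H3K27ac marks active promoters and active enhancers, the latter often far from the gene they act on. Genes of developmental regulators are often flanked by deserts with many enhancers, and enhancers are known to differ between cell types more than promoters do. TLX keeps neural stem cells in a proliferating state and is known mainly as a repressor of transcription. It binds DNA as a nuclear receptor through an extended half-site with the core AAGTCA.

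As a check of the cell type, H3K27ac within 1 kb of either end of a gene was counted over gene lists. Of the astrocyte and radial glia list, 31 of 40 genes had it in NSC and 33 of 40 in BTSC, among them Nes, Fabp7, Slc1a3 and Gfap in both, beside 53.9% and 53.4% of all protein-coding genes. Aqp4, Gjb6, Mlc1, Lix1, Slco1c1 and Slc7a10 of that list had it in neither culture. Aldh1l1, Ntsr2 and Btbd17 had it in BTSC only and Hopx in NSC only. Of the oligodendrocyte list it was 11 and 9 of 17 genes, and of the neuron list 17 and 14 of 50. Sox2, Olig2 and Nr2e1 had it in both cultures, while Pax6 had it in neither. Of the microglia and endothelium list, 2 of 24 genes had it in NSC (Cd68 and Flt1) and 1 of 24 in BTSC (Cd68), and Ptprc, Cx3cr1, Aif1, Csf1r, Pecam1 and Cdh5 had it in neither. Of the other tissues list, 1 of 33 genes had it in either culture.

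Desert peaks overlapped the hairpins of 12 of the 100 desert microRNAs with a hairpin in the RefSeq sequence table (the gene table lists 113 microRNA genes in deserts), and mature sequences are shown because these are the transcribed products that the acetylated regions cover. A microRNA pairs with its targets mainly through its seed, bases 2 to 8, given in capitals. All sequences are RefSeq entries of GRCm38.p6, the assembly of mm10. The first group belongs to the Mir344 array in the desert between Gm51483 and Ndn on chromosome 7. The 5p arms of miR-344, miR-344b, miR-344c and miR-344g share 1 seed, and so do the 3p arms of miR-344 and miR-344c.
mmu-miR-344-5p: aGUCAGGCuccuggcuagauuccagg
mmu-miR-344b-5p: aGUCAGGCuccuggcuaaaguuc
mmu-miR-344c-5p: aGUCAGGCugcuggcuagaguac
mmu-miR-344g-5p: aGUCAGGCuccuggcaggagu
mmu-miR-344-3p: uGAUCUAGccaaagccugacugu
mmu-miR-344c-3p: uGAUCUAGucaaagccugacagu
The second group lies on chromosomes 9 and 16, and each of its members has a seed of its own.
mmu-miR-125b-5p: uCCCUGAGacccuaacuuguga
mmu-miR-99a-5p: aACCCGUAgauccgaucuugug
mmu-let-7c-5p: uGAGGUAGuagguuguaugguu

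The Mir344 array spanned 402187 bp and held 13 hairpins, of which 7 lay in an NSC desert peak and 6 in a BTSC one. Each of these hairpins had a peak of its own. The peak over Mir344-2 (chr7:61938368-61942217 in NSC) was the strongest, with a fold enrichment over the caller's background of 11.1 in NSC and 13.8 in BTSC. Those over Mir344, Mir344c, Mir344g, Mir344f and Mir344i had folds between 5.11 and 7.26 in NSC and between 3.70 and 9.003 in BTSC. Mir344b had a peak in NSC with a fold of 2.83, and the nearest BTSC peak lay 45744 bp away. The 6 remaining hairpins, from Mir344d-1 to Mir344h-2, lay at one end of the array, 47791 to 107024 bp from the nearest NSC peak and 93900 to 153133 bp from the nearest BTSC peak. The 7 acetylated hairpins were those nearest to Ndn, an imprinted neuronal gene 263011 bp or more away.

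Mir125b-1, which lies 324059 bp from Gm40514 on chromosome 9, was covered in both cultures. The peak was 7692 bp wide in NSC (chr9:41579513-41587204, fold 10.98) and 16224 bp in BTSC (chr9:41579442-41595665, fold 11.2). Mir99a and Mirlet7c-1 lie next to each other in the desert between Usp25 and Cxadr on chromosome 16. A BTSC peak of 8209 bp (chr16:77591576-77599784, fold 16.02) covered both, whereas the NSC peak at the same place (fold 13.96) ended 1676 bp before Mir99a and 2397 bp before Mirlet7c-1. The same element was thus called in both cultures, and its called edge differed. Mir802 was covered in both lists, with a fold of 9.83 in NSC and 6.54 in BTSC. Mir7214 lay inside an NSC peak with a fold of 7.17, while the BTSC peak there (fold 4.38) overlapped part of the hairpin and did not reach the mature sequence.

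Among noncoding genes in deserts, long noncoding RNA genes met a peak most often in number. Of 2219 whose body lay in a desert, 418 overlapped an NSC desert peak, 366 a BTSC one and 291 both. By midpoint, 567 NSC desert peaks (22.9%, 95% exact Clopper-Pearson interval 21.3 to 24.6) and 504 BTSC desert peaks (24.5%, 22.6 to 26.4) lay inside a long noncoding RNA gene. Here and below such intervals cover counting error only. The part of the desert length inside long noncoding RNA genes was not measured. The shares and counts given for these genes can therefore not be called high or low. A promoter entry (250 bases before to 50 after the start) existed for 1743 noncoding desert genes, of which 137 had it in a desert peak of either list. For 21 of those 137 the promoter also met a TLX peak of NSC and for 5 one of BTSC. Beside this, 17.5% of all NSC desert peaks and 5.43% of all BTSC desert peaks met a TLX peak of their own culture. Those peaks are wider than a promoter entry, and overlap with TLX rises with width. The shares can therefore not show whether the promoters stand out from the peaks. The 4 promoters that met TLX peaks of both lists are shown because TLX of both cultures and H3K27ac of both cultures coincide on a start site there. Capitals mark the letters AAGTCA or their reverse complement TGACTT, searched on both strands.
Gm20083, chr7:73185351-73185650, plus strand: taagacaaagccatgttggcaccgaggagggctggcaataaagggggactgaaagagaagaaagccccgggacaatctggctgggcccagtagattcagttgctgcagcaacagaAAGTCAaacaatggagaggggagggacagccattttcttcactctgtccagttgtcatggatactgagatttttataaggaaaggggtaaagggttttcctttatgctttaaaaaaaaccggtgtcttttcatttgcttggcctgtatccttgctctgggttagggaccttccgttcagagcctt
Gm51502, chr7:136047820-136048119, plus strand: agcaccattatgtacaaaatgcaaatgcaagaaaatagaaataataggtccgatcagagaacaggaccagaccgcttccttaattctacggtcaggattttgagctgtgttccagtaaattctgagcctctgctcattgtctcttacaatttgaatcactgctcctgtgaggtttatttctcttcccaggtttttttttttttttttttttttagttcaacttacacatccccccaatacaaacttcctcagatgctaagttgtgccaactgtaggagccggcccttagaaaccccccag
4931403M11Rik, chr14:24617215-24617514, plus strand: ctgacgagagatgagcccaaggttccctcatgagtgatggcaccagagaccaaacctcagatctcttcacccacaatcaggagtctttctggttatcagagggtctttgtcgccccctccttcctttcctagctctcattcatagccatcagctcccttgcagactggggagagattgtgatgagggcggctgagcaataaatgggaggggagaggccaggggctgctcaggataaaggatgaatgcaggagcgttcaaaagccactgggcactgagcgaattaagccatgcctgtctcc
Gm6145, chr14:105631275-105631574, minus strand: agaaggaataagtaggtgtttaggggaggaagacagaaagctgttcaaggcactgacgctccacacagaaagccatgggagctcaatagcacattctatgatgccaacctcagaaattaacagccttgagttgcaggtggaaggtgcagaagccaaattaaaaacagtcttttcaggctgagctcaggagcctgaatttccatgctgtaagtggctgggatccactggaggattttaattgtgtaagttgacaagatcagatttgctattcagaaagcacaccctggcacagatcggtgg
Of these, only the Gm20083 entry held the letters, and it was picked among the entries of that gene for holding them. They were present in 33 of 173 noncoding promoter entries in a desert peak (19.1%) and in 4767 of all 31396 autosomal promoter entries (15.2%). Counted once per gene, with any entry, the order was the reverse, with 23 of 137 genes (16.8%) and 4402 of 25748 (17.1%). A match of letters is a description and not a binding site. The peak on Gm51502, in the desert between Mki67 and Mgmt, had a fold of 23.8 in NSC and 19.8 in BTSC. Those on the other 3 promoters had folds of 13.4 to 15.8 in NSC and 13.2 to 15.3 in BTSC.

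Desert peaks were fewer per Mb, narrower and weaker than other peaks in both cultures. Deserts were the gaps between neighbouring protein-coding genes, with 100 kb taken off either end. A stretch beyond a chromosome's outermost gene also counted, cut by 100 kb on the gene side. Its other bound was the outermost peak of any list. In all there were 1379 deserts, with 655 Mb or 27.3% of the autosomal span. They held 3.78 NSC peaks and 3.15 BTSC peaks per Mb, against 16.1 and 16.5 elsewhere, and 0.716% and 0.629% of their length was covered, against 3.57% and 3.92%. The median width of desert peaks was 1369 bp (NSC) and 1361 bp (BTSC), and that of other peaks 1596 and 1592 bp. Its median fold was 3.35 in NSC and 3.52 in BTSC, against 4.72 and 4.60, and its median −log10 q was 4.62 and 5.22, against 10.5 and 9.76. Of the NSC desert peaks 69 (2.79%) ranked among the strongest 10% of their list by q, and of the BTSC desert peaks 90 (4.37%). The median distance to a gene was 216863 bp in NSC and 212290 bp in BTSC, and 55 and 27 desert peaks lay 1 Mb or more from any gene. The peaks farthest out were weak: the 5 farthest of NSC had folds of 2.32 to 3.84, and none met a BTSC peak. Of the 5 farthest of BTSC, 4 had folds of 2.36 to 2.95 and no NSC partner. The fifth (chr2:46664671-46668610), 1549198 bp from Zeb2, a regulator of neural differentiation, had a fold of 7.85 and an NSC partner with 15.3.

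Sharing between the cultures was lower for the NSC desert peaks than for the rest of their list. Of 2474, 1485 overlapped a BTSC H3K27ac peak by at least 1 bp (60.0%, 58.1 to 62.0), against 80.5% (80.1 to 81.0) of the other NSC peaks and 78.9% of all autosomal NSC peaks. Of 2061 BTSC desert peaks, 1471 overlapped an NSC peak (71.4%, 69.4 to 73.3), against 77.1% (76.6 to 77.6) of the other BTSC peaks and 76.7% of all. As 1485 and 1471 are nearly equal, the gap between 60.0% and 71.4% follows from the unlike numbers of desert peaks. It is no separate observation. The share rose with the strength of the peak. With each list split into 10 equal bins by q, it went from 29.2% in the lowest bin to 98.6% in the highest in NSC, and from 36.9% to all 90 peaks in BTSC. The NSC desert share was below that of other peaks in all 10 bins, though the intervals overlapped in the 3 highest. Reweighting the other NSC peaks to the q values of the desert peaks gave them a share of 72.3%, and to their widths 77.4%, both above the 60.0% of the desert peaks. For BTSC the same steps gave 69.5% and 73.5%, on either side of the desert value of 71.4%, and the desert share was the lower one in 4 of 10 bins. In NSC the share was 61.6% (58.7 to 64.5) at 100 to 200 kb and 52.1% (46.2 to 57.9) at 500 kb or more, while in BTSC it was 70.8% and 70.1%. The other peaks include those inside genes and at their ends. With a bound of 50 kb in place of 100 kb the NSC share was 61.7% (60.1 to 63.2). Lower sharing was thus not particular to the 100 kb bound.

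**Figure D1:**
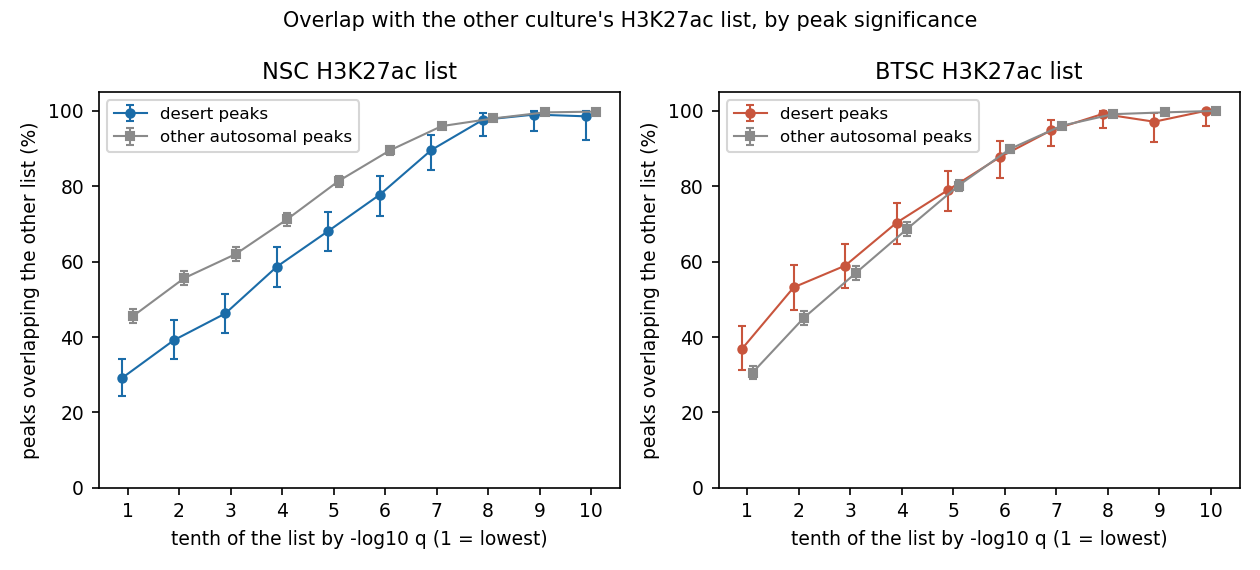
Share of H3K27ac peaks that overlap a peak of the other culture's list (y axis, percent), in 10 equal bins of the list by −log10 q (x axis, 1 the lowest), for desert peaks and other autosomal peaks of NSC (left) and BTSC (right). Points are shares and bars exact 95% intervals for counting error. The NSC desert peaks run below the other NSC peaks, from 29.2% against 45.5% in the lowest bin, while in BTSC the lowest bin has 36.9% against 30.6%.

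Merging overlapping peaks of both lists gave 3038 desert regions. Of these 1459 (48.0%) were called in both cultures, 989 (32.6%) in NSC only and 590 (19.4%) in BTSC only. Regions called in both were wider, with a median of 2157 bp against 989 and 890 bp. Among the regions called in both, the bases covered in BTSC relative to NSC had a median ratio of 0.955. In BTSC 147 of them were covered over at least 2 times as many bases as in NSC, and 210 the other way. Across these 1459 regions the −log10 q of both lists had a Spearman correlation of 0.61, which is a description over regions of 1 library each. A region absent from a list was not called there, which at an unknown depth does not show that it lacked the mark.

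The strongest peaks called in 1 culture only were picked after their values were seen. In NSC the strongest without a BTSC partner was chr12:20920097-20921914 (fold 16.2, −log10 q 85.8), 190363 bp from Asap2. In BTSC the strongest without an NSC partner were chr6:31124952-31127290 (fold 13.2), 167131 bp from Klf14, chr12:90563821-90565586 (fold 11.5), 159849 bp from Dio2, the enzyme that activates thyroid hormone in astrocytes, and chr9:14023364-14025605 (fold 10.99), 169797 bp from Fam76b.

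There were fewer BTSC than NSC desert peaks, a ratio of 0.833 (95% exact conditional binomial interval 0.785 to 0.884), while other peaks had a ratio of 1.03 (1.01 to 1.04). NSC had more desert peaks on 18 of 19 chromosomes. The exception was chromosome 1, with 225 BTSC against 161 NSC desert peaks (ratio 1.398, 1.136 to 1.72). Chromosome 6 had the lowest ratio, with 82 against 138 (0.594, 0.446 to 0.787). The other peaks of these chromosomes had ratios of 1.35 and 0.821, in the same direction as in deserts. The desert interval of chromosome 6 overlapped those of other chromosomes, such as chromosome 5 with 0.623 (0.425 to 0.905). Leaving out chromosomes 1 and 6 gave a desert ratio of 0.806 (0.757 to 0.859) and a ratio of 1.02 for other peaks. On the remaining chromosomes the desert ratio ran from 0.623 on chromosome 5 to 0.873 on chromosome 4. When both lists were reduced to their 15000 autosomal peaks of highest q, the ratio was 0.966 (0.868 to 1.07), an interval that includes 1. With −log10 q of at least 5 in both lists it was 0.900 (0.828 to 0.979), which lies below 1. With a bound of 50 kb in place of 100 kb it was 0.846 (0.807 to 0.887). The lower number in BTSC was thus not particular to the 100 kb bound. Among regions called in both cultures, 69.8% of those on chromosome 1 were covered over more bases in BTSC, 22.6% of those on chromosome 6, and 45.4% of those on all others.

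**Figure D2:**
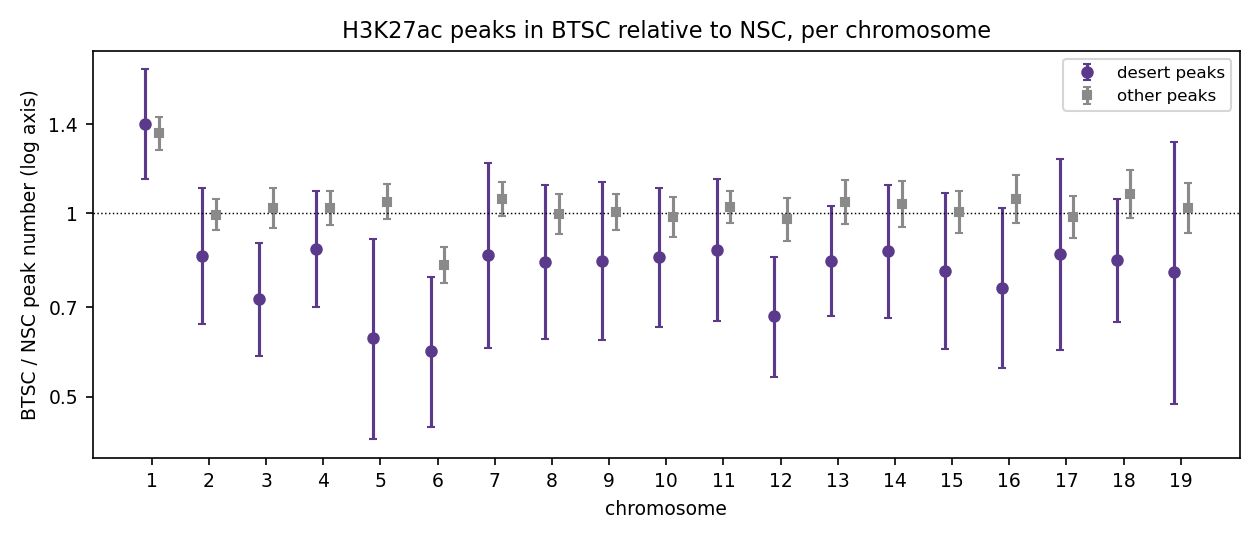
Number of BTSC peaks divided by number of NSC peaks (y axis, log scale) on each autosome (x axis), for desert peaks (circles) and other peaks (squares), with exact 95% intervals for counting error. Chromosome 1 lies above 1 for both kinds of peak, chromosome 6 below 1 for both, and the desert peaks of the remaining chromosomes lie between 0.623 and 0.873.

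Desert regions were unevenly spread. Of 1379 deserts, 782 held at least 1 region: 580 with peaks of both lists, 146 with NSC peaks only and 56 with BTSC peaks only. The 72 deserts with 10 or more regions held 1076 regions (35.4%) in 11.2% of the desert length. Length and number of regions had a Spearman correlation of 0.53 across the 1379 deserts. Of the 185 that were 1 Mb or longer, 27 had no region, the longest being the 3.21 Mb between Slitrk5 and Gpc5.

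The desert between Rps24, a ribosomal protein gene, and Zmiz1 held 29 regions in 0.761 Mb, 20 of them called in both cultures. That between Zfp608 and Gramd3 on chromosome 18 also held 29, with 24 in both. The desert between Agtr1b and Tbl1xr1, a subunit of the NCoR corepressor complex, held 27, over which peaks covered 86052 bp (NSC) and 50401 bp (BTSC). In the desert between Marcks, a substrate of protein kinase C at the membrane, and Rfpl4b the order was the opposite, at 42223 bp (NSC) and 100110 bp (BTSC). There 10 of 26 regions were called in BTSC only and 2 in NSC only.

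The desert between Nrsn1 and Hdgfl1 on chromosome 13 had the most acetylated bases of the 10 deserts with most regions. In NSC 99751 bp were acetylated there and in BTSC 150094 bp. All of its 19 NSC peaks met a BTSC peak, while 8 of its 23 regions were called in BTSC only. It held the widest NSC desert peak, chr13:25734965-25755899 with 20935 bp (fold 10.8), which met a BTSC peak of 32054 bp (fold 12.7). Its 4 TLX peaks of NSC and 4 of BTSC stood at the same 4 places. The desert between Usp25 and Cxadr held 24 regions, 19 in both cultures, with 45831 bp (NSC) and 67354 bp (BTSC) acetylated. It had 5 TLX peaks in NSC and 1 in BTSC, and that 1 coincided with the strongest of the NSC peaks there (folds of 10.3 in NSC and 7.03 in BTSC).

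**Figure D3:**
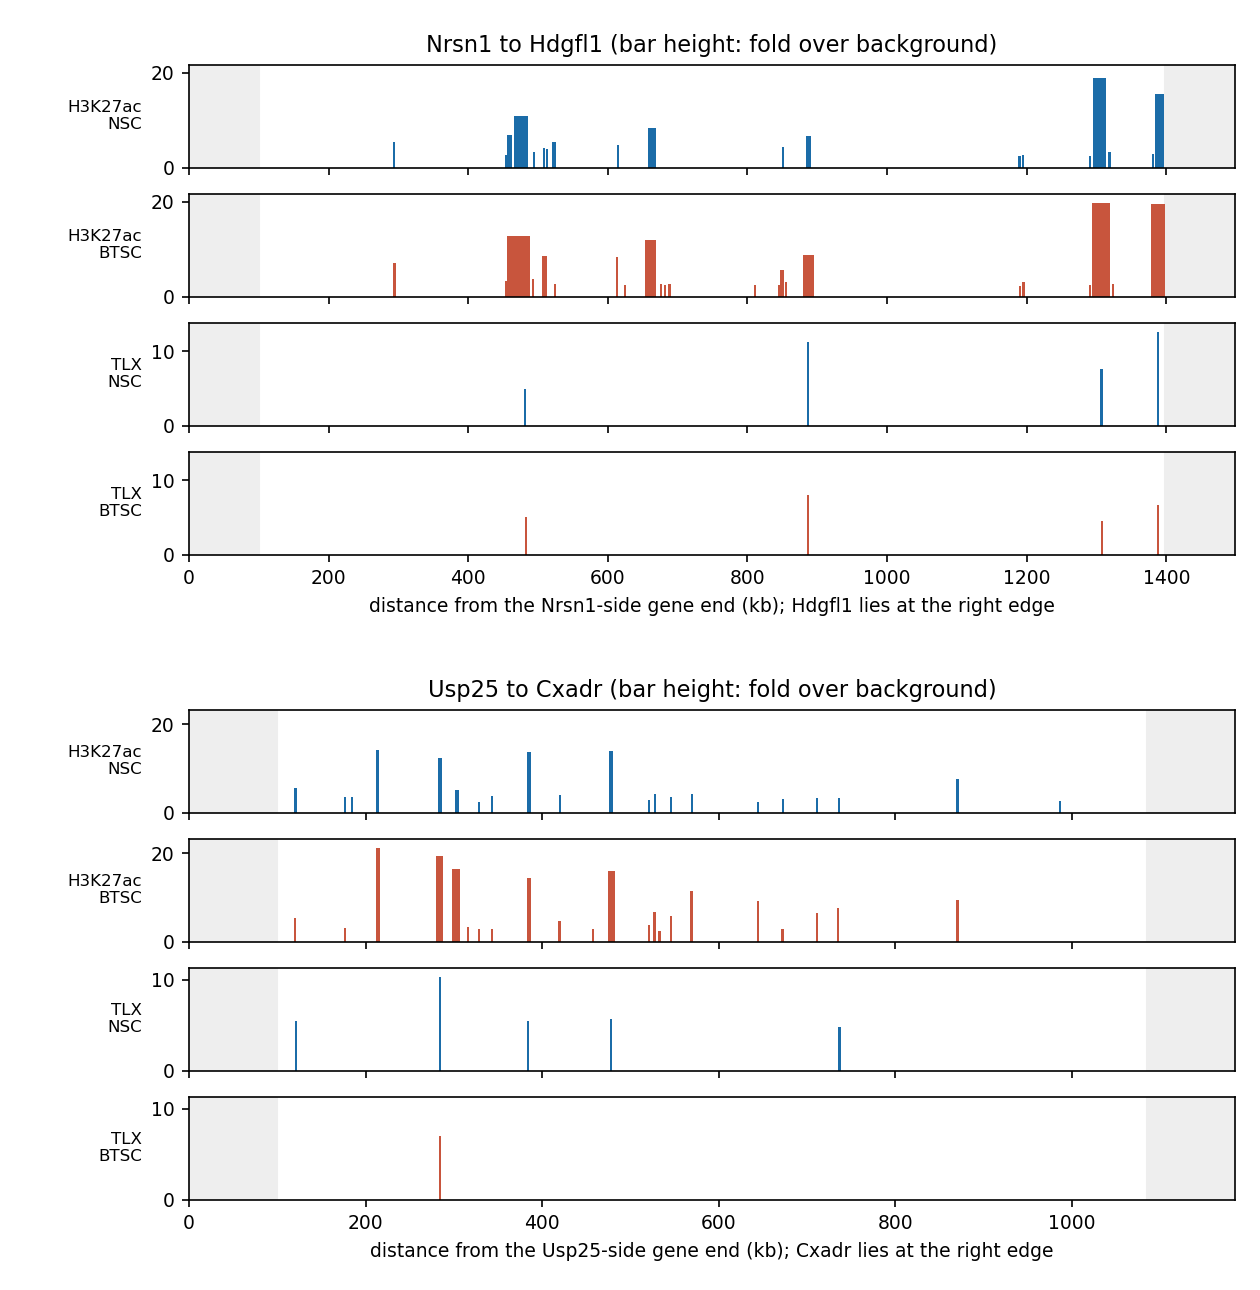
Peaks in the deserts between Nrsn1 and Hdgfl1 (top) and between Usp25 and Cxadr (bottom), by distance in kb from the gene end on the left (x axis), with bar width the width of the peak (drawn at least 1/500 of the gap) and bar height the authors' fold over background (y axis). Grey marks the 100 kb next to each gene, whose peaks are not drawn. In the upper desert TLX of both cultures stands at the same 4 places, in the lower one at 1 of 5.

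In the desert between Myc, the growth-promoting transcription factor, and Gsdmc, 21 regions had 56487 bp acetylated in NSC against 33505 in BTSC. It held 9 TLX peaks of NSC and 2 of BTSC. The desert between Slc4a3 and the ephrin receptor gene Epha4 lies on chromosome 1, which stood apart as a whole, and had 13 of 22 regions in BTSC only. In some deserts the regions called in 1 culture only were all from the same culture. That between Mn1 and Cryba4 had 12 of 13 regions in NSC only and none in BTSC only, and that between Plk2 and Actbl2 had 11 of 15 in NSC only and none in BTSC only. Between Mpdz and Nfib 7 of 16 were in BTSC only and none in NSC only, and between Sox9 and Slc39a11 5 of 14 in BTSC only and none in NSC only. These 4 deserts were picked after their counts were seen.

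Joining regions over gaps of at most 0.0125 Mb gave 2429 groups, of which 2010 were single regions, 301 pairs and 118 clusters of 3 or more. These clusters held 426 regions (14.0%), at most 7 each. Peaks of both lists were present in 111 of the 118. A group of several regions readily holds both lists, since 48.0% of all regions were called in both, so this count does not set clusters apart. The share of regions called in both cultures was 44.4% among single regions, 51.8% in pairs and 59.6% in clusters, where the median region was also wider (1311, 1502.5 and 1968.5 bp). At least 1 NSC TLX peak lay in 66 clusters (55.9%) against 13.9% of single regions, and at least 1 BTSC TLX peak in 29 (24.6%) against 3.08%. A cluster holds more bases than a single region, and these shares were not adjusted for that.

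The cluster with most covered bases lay between Pabpc6 and Qk, the gene of the glial RNA-binding protein quaking. It spanned 82584 bp on chromosome 17 (chr17:9831851-9914434) and was nearly equal in both cultures, at 61384 bp (NSC) and 60514 bp (BTSC). The widest desert peak of BTSC, 42629 bp (chr17:9871806-9914434, fold 17.4), was part of it and met 3 NSC peaks with 37567 bp in all. The cluster near Zfp36l2, an RNA-binding protein gene (chr17:84025587-84087079), held 7 regions and the most TLX peaks among the clusters of most regions, 4 of NSC and 3 of BTSC. A cluster near Klf14 had 30678 bp (NSC) and 29692 bp (BTSC) covered, and 4 and 2 TLX peaks. At its end lay the strongest BTSC desert peak without an NSC partner, named above.

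Other groups of regions, some of 1 or 2 regions only, differed between the cultures in covered bases. BTSC peaks covered more near Lrfn2 (27381 against 8726 bp in NSC), near Rfpl4b in the Marcks desert (25413 against 6942 bp over 2 regions), near Ccnh (16635 against 2318 bp over 1 region) and between Sox9 and Slc39a11 (15554 against 3994 bp). The largest difference in this direction, near Ptprc, the gene of the leukocyte antigen CD45, was 37713 against 18719 bp and lay on chromosome 1. NSC peaks covered more in 2 groups near Tbl1xr1 (27307 against 15457 bp in BTSC and 13897 against 3339 bp), near Trib2, a pseudokinase gene (16123 against 5082 bp), and near Gm5148 (12695 against 2693 bp). The largest difference in this direction, near Npvf, was 31060 against 18292 bp and lay on chromosome 6. That group held the NSC desert peak of highest q (chr6:50769466-50788105, fold 25.8), whose BTSC partner had a fold of 23.5.

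**Figure D4:**
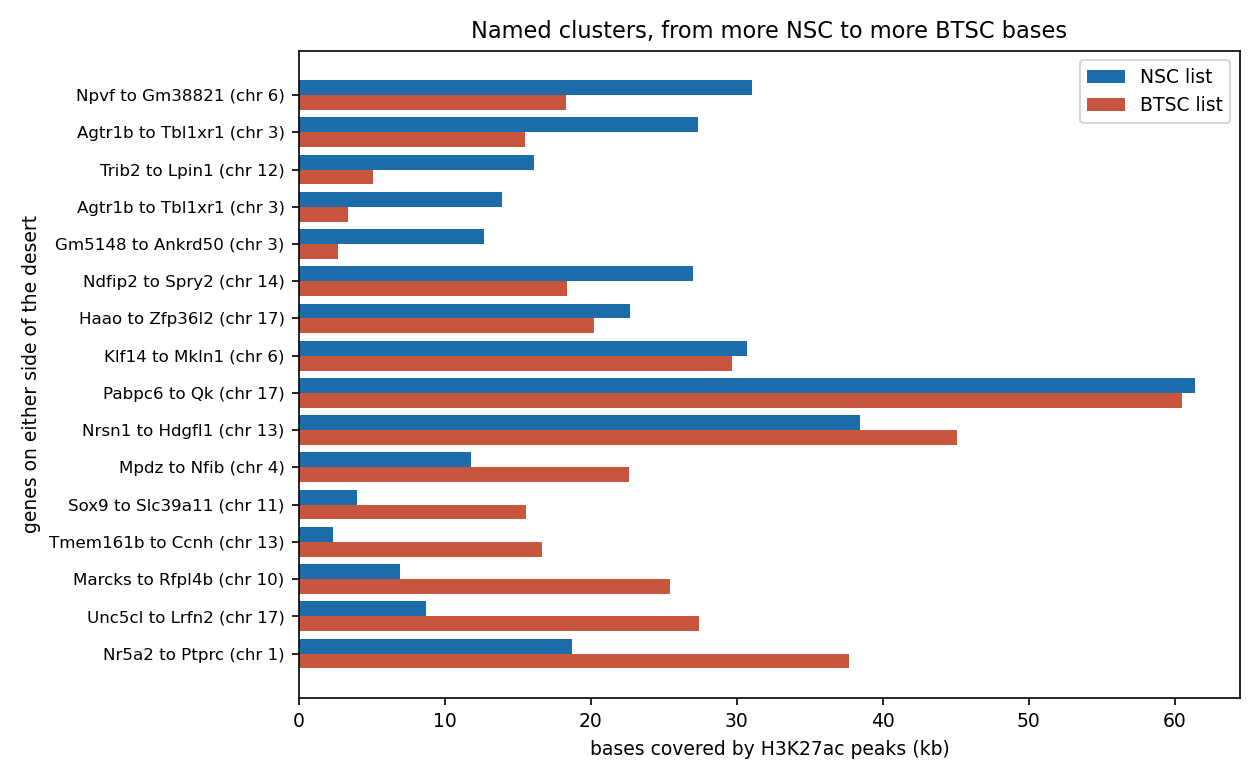
Bases covered by H3K27ac peaks in kb (x axis) in the NSC and the BTSC list, for the groups of regions named by number of regions or by difference (y axis, the genes on either side of the desert and the chromosome), ordered by BTSC minus NSC. The group between Pabpc6 and Qk is nearly equal (61384 against 60514 bp), while at one end BTSC has 18994 bp more, near Ptprc.

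The highest q of all BTSC desert peaks belonged to chr18:63553989-63557502, 107056 bp from Txnl1, with a fold of 35.9 and an NSC partner with 19.9. The NSC desert peak second in q lay 206205 bp from Sox2, the stem cell transcription factor (chr3:34439369-34448212), with a fold of 25.4 and a BTSC partner with 22.3. A pair of wide peaks lay 144998 bp (NSC) and 144487 bp (BTSC) from Pdgfra, the growth factor receptor of oligodendrocyte progenitors, with 19260 and 17729 bp. Near Irx1 an NSC desert peak had a fold of 22.1 (BTSC partner 18.3), and near Sall3 one had 22.9 (BTSC partner 26.9).

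Among the 2347 protein-coding genes that flank a desert, 1065 (45.4%) were the nearest gene to at least 1 desert region. Nearness does not show which gene a region acts on. Tbl1xr1 was nearest to 29 regions, Zfp608 to 28, Rps24 and Usp25 to 19 each, Marcks, Myc and Sox2 to 18 each, and Mki67, a gene of proliferating cells, to 17. Of the 67 flanking genes on the list of neural transcription factors, 56 (83.6%) were nearest to a region, with a median of 2 regions per gene against 0 for all flanking genes. Of the 66 on the list of cell adhesion and axon guidance it was 42 (63.6%), of 44 growth factors, ligands and receptors 23 (52.3%), of 11 astrocyte and radial glia genes 8 (72.7%), of 29 neuron genes 12 (41.4%) and of 9 genes of other tissues 2 (22.2%). Of 5 genes on the microglia and endothelium list, 3 (60.0%) were nearest to a region (Ptprc, Cdh5 and Emcn), and their own ends had no H3K27ac in either culture. Of the 2 oligodendrocyte genes Pdgfra was. No test was made on these lists, which were chosen with earlier results known. Longer deserts tended to hold more regions, and the shares were not adjusted for desert length.

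Within the neural transcription factors the classes of region differed from gene to gene. For Sox2 11 of its 18 regions were called in both cultures, 6 in NSC only and 1 in BTSC only, and for Myc 9, 7 and 2. Tox3, an HMG-box gene, had 5 in both, 8 in NSC only and 0 in BTSC only. Sox4 and Sox11, partners in neuronal differentiation, had 6, 5 and 1 and 5, 5 and 1. These 5 genes, singled out after their counts were seen, had more regions in NSC only than in BTSC only. The whole list had the same order, with 138 regions in both, 82 in NSC only and 59 in BTSC only, and so had the regions of all genes.

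Other genes had the reverse order. Nfia and Nfib, factors that start gliogenesis, had 6 regions in both, 0 in NSC only and 3 in BTSC only, and 5, 0 and 4. The ends of Nfia itself had H3K27ac in BTSC only. Sox9, which acts before them in the same programme, had 7, 0 and 2, with 20848 bp (NSC) and 24031 bp (BTSC) covered. It stands on both the transcription factor and the astrocyte list. Tcf4 had 6, 0 and 3, and Meis1 5, 0 and 2. Among astrocyte genes Gja1, which encodes the gap junction protein connexin 43, had 5, 0 and 6, with 6299 bp (NSC) and 22818 bp (BTSC) covered. Tnc, an extracellular matrix gene of radial glia, did not follow this order, with 5, 3 and 2. None of these genes lies on chromosome 1 or 6, and they were singled out after their counts were seen. Over the whole astrocyte and radial glia list the 38 regions were 21 in both, 5 in NSC only and 12 in BTSC only, of which Gja1 gave 6. Over the neuron list the 21 regions were 8 in both, 13 in NSC only and 0 in BTSC only. Over all genes they were 1459, 989 and 590.

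Genes nearest to a desert peak more often had H3K27ac within 1 kb of either of their own ends. In NSC 634 of 961 had it (66.0%, 62.9 to 69.0), against 49.5% (46.8 to 52.2) of the desert-flanking genes nearest to none and 53.9% of all protein-coding genes. With 5 or more desert peaks it was 99 of 137 (72.3%). In BTSC the shares were 63.8% (60.4 to 67.0), 46.1%, 53.4% and 76.6% in the same order. Few regions stood beside a gene whose ends differed between the cultures. Of NSC-only regions, 71 (7.18%) were nearest to a gene with H3K27ac at its ends in NSC only and 12 (1.21%) to one with it in BTSC only. Of BTSC-only regions the numbers were 15 (2.54%) and 16 (2.71%), and of regions called in both 54 (3.70%) and 35 (2.40%).

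TLX peaks overlapped 434 NSC desert peaks (17.5%, 16.1 to 19.1), against 20.8% (20.4 to 21.3) of other NSC peaks and 20.6% of all. In BTSC 112 desert peaks had a TLX peak of their own culture (5.43%, 4.50 to 6.50), against 4.05% (3.83 to 4.29) of other peaks and 4.14% of all. TLX of the other culture's list lay on 103 NSC desert peaks (4.16%, beside 3.93% of all autosomal NSC peaks) and on 375 BTSC desert peaks (18.2%, beside 19.6%). The TLX lists differ in length, with 7412 autosomal peaks in NSC and 1429 in BTSC. When the NSC TLX list was reduced to as many peaks as the BTSC list has, by q, 5.30% (4.45 to 6.25) of the NSC desert peaks had a TLX peak, against 3.79% (3.57 to 4.02) of others. The order of desert and other peaks in NSC thus depended on how much of the TLX list was counted. Other peaks reweighted to the q values of the desert peaks had TLX in 12.7% of cases in NSC and 2.66% in BTSC. Reweighted to their widths they had it in 18.1% and 3.39%. So BTSC desert peaks had TLX more often than other peaks of like q or like width, and NSC desert peaks more often than those of like q but not of like width. The other peaks include those inside genes and at their ends. With a bound of 50 kb the TLX shares were 19.8% (NSC) and 6.1% (BTSC), and with 200 kb 15.6% and 4.81%. TLX was thus not more frequent farther from genes, though both BTSC values lay within the interval of the main one. In the widest 10% of peaks the shares were 62.3% of desert peaks and 53.1% of others in NSC, and 26.2% and 14.0% in BTSC.

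**Figure D5:**
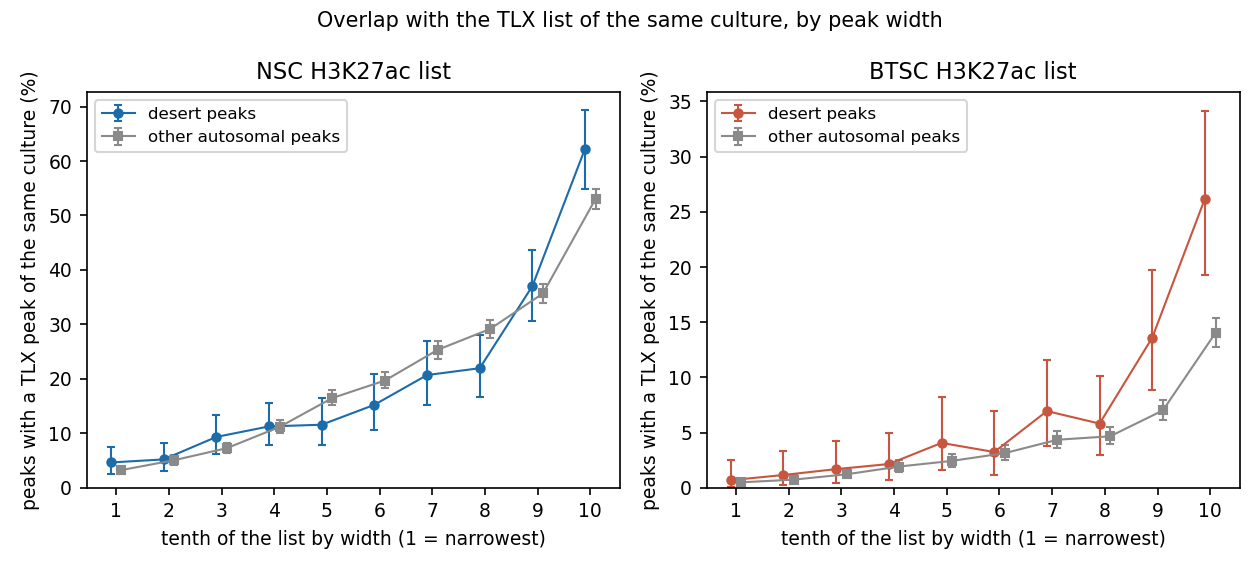
Share of H3K27ac peaks with a TLX peak of the same culture (y axis, percent, scaled separately), in 10 equal bins of the list by width (x axis, 1 the narrowest), for desert peaks and other autosomal peaks of NSC (left) and BTSC (right), with exact 95% intervals for counting error. The share rises with width in both kinds of peak, up to 62.3% of desert peaks in NSC and 26.2% in BTSC.

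TLX went with sharing of the H3K27ac peak. Of the NSC desert peaks shared with BTSC 23.8% (21.6 to 26.0) had an NSC TLX peak, and of those not shared 8.19% (6.56 to 10.1). In BTSC it was 6.59% (5.38 to 7.99) and 2.54% (1.43 to 4.16). Other peaks had the same order, with 24.6% and 5.45% in NSC and 4.89% and 1.22% in BTSC. Shared desert peaks were also wider, with a median of 1779 against 989 bp in NSC and 1667 against 890 bp in BTSC. By region, 101 of 3038 held TLX of both lists, 356 of the NSC list only and 14 of the BTSC list only. Of the 93 NSC desert peaks with TLX of both lists (3.76%, beside 3.39% of all autosomal NSC peaks), 91 overlapped a BTSC H3K27ac peak. Among the other NSC peaks with TLX of both lists it was 933 of 939, so this was no trait of deserts. Of the 99 BTSC desert peaks with both (4.80%, beside 3.49%), 89 overlapped an NSC one. Of all autosomal BTSC peaks, whatever their TLX, 76.7% did. That is not a like comparison, and no trait of deserts is read from it.

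Seen from the TLX lists, 585 of 7412 NSC summits (7.89%) and 133 of 1429 BTSC summits (9.31%) lay in deserts. H3K27ac of the same culture was present at 78.6% (75.1 to 81.9) of the NSC TLX peaks in deserts, against 92.9% elsewhere and 91.7% of all. In BTSC it was 88.7% (82.1 to 93.5) against 93.8%, beside 93.3% of all. A TLX peak of the other list was present at 20.5% (17.3 to 24.0) of those in NSC, against 15.4% elsewhere and 15.8% of all, and at 88.7% of those in BTSC, against 81.2% and 81.9%. TLX peaks in deserts had a median fold of 5.35 in NSC and 5.49 in BTSC, against 4.78 and 5.26 elsewhere.

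The TLX peak of highest q on an NSC desert peak lay 367150 bp from Tcf4, a basic helix-loop-helix factor of neural development (H3K27ac at chr18:68973576-68978983). Its TLX folds were 22.0 in NSC and 13.0 in BTSC, with H3K27ac folds of 18.1 and 24.8. Near Cd180 a desert peak of moderate acetylation (chr13:102572773-102574499, folds of 5.72 in NSC and 6.88 in BTSC) had TLX folds of 18.2 and 12.4. Near Tenm4, a teneurin of the neuronal surface, the TLX folds were 15.1 in NSC and 15.6 in BTSC, on H3K27ac peaks with 6.84 and 6.48 (chr7:95925116-95927720), and this was the TLX peak of highest q on a BTSC desert peak. Strong TLX thus also stood on desert peaks of middling acetylation. Near Sesn3 the TLX folds were 17.4 in NSC and 9.61 in BTSC, and the H3K27ac folds 11.6 and 22.2. Near Nfia they were 14.3 and 8.23, with H3K27ac folds of 10.5 and 12.6. Near Kiz the NSC TLX peak had a fold of 14.6 and none was called in BTSC, although H3K27ac was present there with folds of 13.0 and 22.5. The peak near Sox2 described above held 3 NSC TLX peaks, the most of any NSC desert peak, with a highest fold of 5.93, and no BTSC one.

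Some TLX peaks in deserts, picked after their values were seen, stood without acetylation or with low folds. The desert TLX peak of highest q in either list (chr2:98666659-98667184 in NSC) had folds of only 1.22 in NSC and 1.35 in BTSC and no H3K27ac, and so did one at chr9:3023557-3024551 (1.46 and 1.60). A BTSC desert peak between Esp15 and Esp38 (chr17:39842974-39848657) was the only one with an H3K27ac fold under 2 (1.75), and it met 3 NSC TLX peaks and 1 BTSC one with folds up to 1.91 and 2.11. Peaks of such low fold were kept in the main counts above. Repeat content was not examined, so whether these are true binding sites was not tested. By contrast a TLX peak 2082397 bp from Celf4 (chr18:27836618-27837216) had a fold of 17.3 in NSC and 9.61 in BTSC, with no H3K27ac called in either culture.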

How the data were processed

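The data are 4 deposited peak lists, 1 per library, with TLX in narrow and H3K27ac in broad peaks. The submitters' processing notes name bcl2fastq (2.17.1.14), Bowtie, ChIPseeker and build mm10. Which program called the peaks, against which background and with which thresholds, is not stated in the labels or files used here, nor is any library's depth. For every peak the authors deposited a fold, which is a ratio over background on a linear scale. The authors also deposited a −log10 p-value. The −log10 q-value and the score of each line are likewise the authors' deposited values. Fold and q served to describe, rank or filter peaks within a list, and values of both lists are otherwise set side by side only.

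Peak starts were made 1-based. Genes came from the RefSeq table of GRCm38.p6, with 20558 autosomal protein-coding genes after 333 genes on scaffolds (107 of them protein-coding) were left out. That table gives no strand or exons. Overlap meant at least 1 bp. Bins by q and width were made over all autosomal peaks of a list. Intervals are exact at 95% (scipy 1.17.1, numpy 2.4.6, pandas 2.3.3, Python 3.11.15). No test was made. Overlap, nearest-gene and merging routines were tested on simulated intervals.

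The rule for named items takes the widest, strongest and farthest peaks of each list, the clusters and deserts with most regions or bases, the clusters with the largest difference, the peaks with the strongest TLX or TLX of both lists, microRNAs under a desert peak, and genes of the 8 lists (413 entries). The members and lists were chosen with earlier results of these data known. Alternatives were distances of 50 and 200 kb, every RefSeq gene, −log10 q of at least 5, fold of at least 2, a reciprocal overlap of 50% or a TLX summit inside the peak, other cluster gaps, both flanking genes, and leaving out chromosomes 1 and 6. The alternatives to the ratio of peak numbers, the lists of 15000 peaks and the shortened NSC TLX list were chosen after seeing the data. Some items are not reported here.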

Additional observations from a re-analysis of the deposited data

Results flagged for a closer look

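Chromosome X was outside the rule. By the same distance it held 82 NSC desert peaks of 776 H3K27ac peaks on that chromosome and 80 BTSC desert peaks of 791, a signal in data that the comparisons above do not use.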

How the results depend on the processing

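The alternatives gave 61 values, of which 31 moved by less than the interval or the factor of comparison and 30 by more. No result changed the side of a test, since no test was made. With a distance of 50 kb the desert peaks numbered 3781 in NSC and 3200 in BTSC, with 200 kb 1354 and 1102, with every RefSeq gene of any kind as a bound 362 and 271, and with −log10 q of at least 5 1174 and 1057. The NSC share overlapping a BTSC peak was 53.9% with every RefSeq gene, 42.5% with a reciprocal overlap of 50% and 63.4% among the 15000 strongest peaks. The BTSC share was 67.6% with −log10 q of at least 5, 51.0% with the reciprocal overlap, 73.6% without chromosomes 1 and 6 and 64.6% among the 15000 strongest. In that last setting both lists were thus nearly equal in sharing, and also in number of desert peaks. The NSC share with TLX was 19.8% at 50 kb, 15.6% at 200 kb, 13.0% with every RefSeq gene, 28.7% with −log10 q of at least 5 and 5.30% with as many TLX peaks as in BTSC. The BTSC share with TLX was 8.23% with −log10 q of at least 5. The ratio of BTSC to NSC desert peaks was 0.749 with every RefSeq gene, 0.900 with −log10 q of at least 5 and 0.966 among the 15000 strongest, below 1 in each alternative tried. Clusters of 3 or more regions numbered 38 with a gap of 5 kb, 282 with 50 kb and 32 with −log10 q of at least 5. Counting both genes that flank a desert gave 35 growth factor genes, 2 oligodendrocyte genes and 5 genes of other tissues. The cause of these moves was not tested. Some settings leave fewer peaks or genes than the main one, and others leave more. No paired analysis was possible because each group has 1 library and no result comes from a test. The lists hold no read numbers, so what depth limits could not be stated.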
